A study of Mus musculus with 81 samples.

Results

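Small nucleolar RNAs are short, non-coding RNAs that sit in the nucleolus and guide chemical changes of other RNAs. Those of the C/D class (symbols starting with Snord) guide 2'-O-methylation and those of the H/ACA class (Snora) guide pseudouridylation, chiefly of ribosomal RNA, and a few take part in cutting the ribosomal RNA precursor. Most mammalian snoRNAs are encoded in introns of host genes, often genes for ribosomal proteins or translation factors, or non-coding host genes whose own transcript is short-lived. Neutrophils are short-lived phagocytes that leave the bone marrow as non-dividing cells.

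The members are all probe sets whose gene symbol in the platform's gene table, alone or with others, starts with Snord or Snora. They number 72 of the 24922 probe sets measured, 43 of the C/D and 29 of the H/ACA class. Of these, 53 list 1 symbol and stand for 50 genes, since Snora3, Snora21 and Snord58b have more than 1 probe set each. The other 19 list several symbols, and 15 of them share a probe set with a host or other longer gene, so their values are given for the probe set. The choice used symbols alone and no measured value.

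The samples were CD11b+ Ly6G+ cells sorted from the bone marrow of male mice aged 6 weeks of inbred, otherwise untreated strains, and the RNA of a few animals was pooled for every array. The 81 Affymetrix whole-transcript arrays fall by title into 40 groups: C57BL/6J with 5 arrays, FVB/NJ and SWR/J with 1 each, and 37 groups with 2. In 5 groups the title and the label of genetic background name different strains, and these go by their titles here, as titled Balb, titled BPL, titled C57BR, titled DBA2 and titled BTBR. The other 35 groups carry the names 129S1/SvImJ, A/J, AKR/J, C57BL/10J, C57BL/6J, C3H/HeJ, C57BLKS/J(662), C57L/J (668), CAST/EiJ, CBA/CaJ, CBA/J, CE/J, DDY/JclSidSeyFrkJ, FVB/NJ, JF1/Ms, KK.Cg-Ay/J, LGJ, LP/J(676), MA/MyJ, MRL/MpJ, MSM/Ms, NOD/ShiLtJ, NON/ShiLtJ, NOR/LtJ, NZB/BINJ, NZW/LacJ, P/J, PL/J, PWD/PHJ, RIIIS/J, SEA/GnJ, SJL/J, SM/J, SWR/J and WSB/EiJ.

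Values are log2 intensities, and differences are differences of log2 intensity, so that 1 is a 2-fold difference. The 10 defining neutrophil markers had a median level of 13.49, while the median levels of the marker lists for erythroid, B, T and NK, monocyte, eosinophil, basophil and platelet cells lay between 4.59 and 6.93. Array medians over all probe sets lay between 97.2 and 114.8 intensity units. Precision is limited by how few arrays each strain has, and in sorted cells fewer cells of a type and less RNA per cell cannot be told apart.

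All 53 members with 1 symbol have a RefSeq position on assembly GRCm38.p6, with lengths between 53 and 205 bases, and 52 of them lie inside the span of another gene. The exception was Snord118 (chromosome 11, 69073426 to 69073562), the U8 snoRNA, which the span of no other gene held in full. Partial overlap with a neighbour was not looked at. The spanning genes of all members number 55, among them ribosomal protein genes such as Rpl13a, Rps3, Rpl32 and Rplp2, the snoRNP protein gene Nop56, the nucleolin gene Ncl and the non-coding genes Gas5, Snhg3, Snhg7, Snhg8, Snhg12 and Snhg14. Many snoRNA host genes are known to start with a 5' terminal oligopyrimidine tract, a C followed by pyrimidines, which puts their messenger under growth-dependent translation. RefSeq start windows were at hand for 42 spanning genes (44 windows), and 8 of the 44 (18.2%) had a C followed by 4 pyrimidines exactly at the annotated start, read on the gene's strand. The same held for 823 of all 32851 windows (2.51%). The match is exact to the annotated base, so a tract that begins a few bases away was not counted. The windows with a match are shown from 20 bases before the start to 10 bases from it on, with the pyrimidine run at the start in capitals (RefSeq, GRCm38.p6).
Gas5 (host of Snord47; chr1:161035146-161035175, plus strand): gactcagccgccatctcagcCTTTCggagc
Snhg7 (Snora43; chr2:26640235-26640264, minus strand): gtggcgtggagatgctcggcCTCTCggcag
Snhg8 (Snora24; chr3:123508327-123508356, minus strand): tgcgcgcaccgttcagaagtCTCTTTggct
Ipo7 (Snora23; chr7:110018295-110018324, plus strand): gggccttggcgcttctctttCCTTTCgcgc
Rplp2 (Snora52; chr7:141447631-141447660, plus strand): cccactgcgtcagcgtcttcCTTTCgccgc
Rack1 (Snord95 and Snord96a; chr11:48800340-48800369, plus strand): tccggcggaggccgctctttCTTTTTCTCC
Gm36220 (Snord104; chr11:106500895-106500924, plus strand): ggccacacgtccattccggcCTCTTatcga
1110038B12Rik (Snord52; chr17:34952459-34952488, minus strand): gaggcgggcggcacacgggtCTCTTTgtgc
For comparison, Ncl, the host of Snord82 and Snora75, had no such run at its annotated start.
Ncl (chr1:86359446-86359475, minus strand): cggttggctccggggacggacgcgagctct

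There were 3 members whose probe sets are assigned to a microRNA together with a snoRNA, and in each case a listed hairpin and the snoRNA gene overlap. The hairpin of Mir664 shares 64 of its 69 bases with Snora36b, and that of Mir1291 shares 73 of its 117 bases with Snora34. Of Mir3084-2, 56 of 69 bases lie on Snora19, while Mir3084-1, listed on the same probe set, lies elsewhere on chromosome 19 and shares 0 bases with it. These probe sets are not separable into the microRNA and the snoRNA. The mature sequences are given with the seed (bases 2 to 8) in capitals. No 2 of the 5 share a seed.
mmu-miR-664-5p: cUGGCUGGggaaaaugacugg
mmu-miR-664-3p: uAUUCAUUuacuccccagccua
mmu-miR-1291: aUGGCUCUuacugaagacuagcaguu
mmu-miR-3084-5p: gUUGAAGGuuaauuagcagagu
mmu-miR-3084-3p: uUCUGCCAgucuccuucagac
The probe set assigned to Mir1291 and Snora34 is the member of the 3 with the highest mean, 7.21, and it is described again below. The probe set of Mir664 and Snora36b had a mean of 4.91 and that of Mir3084-2, Mir3084-1 and Snora19 a mean of 3.58.

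Mean levels over the 40 groups ran from 3.41 for one Snord58b probe set to 12.76 for Snora52, with a median of 7.43. A mean of at least 7 was reached by 42 members, called the brighter members here. A mean of at least 10 was reached by 6, and 10 lay under 5. Probe sets differ in how well they bind their target, so no order of abundance among the snoRNAs is read from these levels. The members with 1 symbol and the highest values were Snora52 in Rplp2 (12.76), Snord57 in Nop56 (12.69), Snord82 in Ncl (11.41), Snord49b in 2410006H16Rik (11.23), Snora7a in Rpl32 (10.97) and Snora73a in Snhg3 (9.93). Snora73a and Snora73b are the U17 snoRNAs, which act in cutting the ribosomal RNA precursor.

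Before the strains are compared, the arrays of 1 strain have to be set against each other. For the members this spread was wide. The pooled standard deviation (SD) of arrays within a group had a median of 0.39 over the 72 members and of 0.14 over all probe sets. Among brighter members it was 0.42, beside 0.15 over the 10827 probe sets that are as bright. For 62 of the 72 it lay above 0.21, the 90th percentile of all probe sets. The SD of the 40 group means had a median of 0.36 for members and of 0.14 for all probe sets. Both SDs were thus larger in the median member than in the median probe set, and a median of 27.3% of a member's variance lay between strains, beside 33.7% for all probe sets. At a mean of at least 7 these shares were 33.4% and 55.2%. Without both C57L/J (668) arrays, which are described next, the median SD within groups of the members was 0.33.

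**Figure D1:**
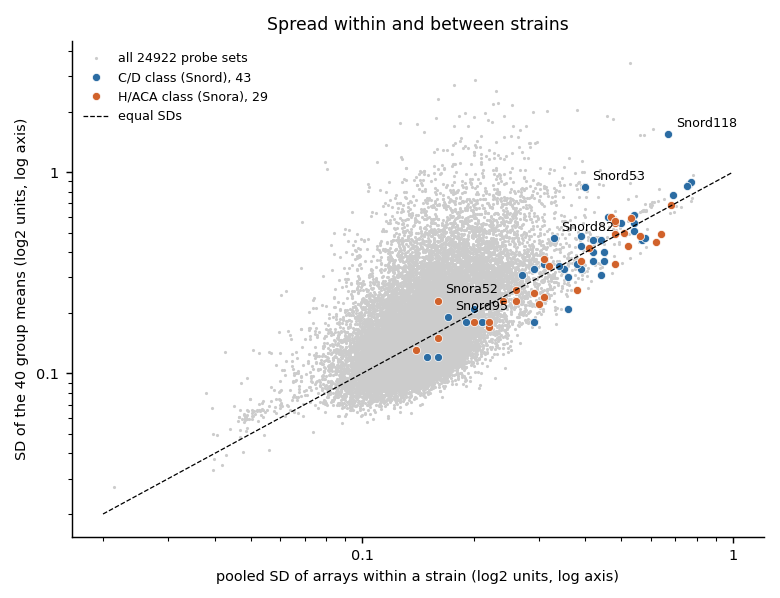
Each point is a probe set, with the pooled SD of arrays within a strain on the horizontal axis and the SD of the 40 group means on the vertical axis, both in log2 units on log axes. Grey points are all 24922 probe sets, blue points the 43 C/D and orange points the 29 H/ACA members, and the dashed line marks equal SDs. Most members lie to the right, near the line, while Snord118 and Snord53 lie well above it.

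The members did not vary independently within a strain. The deviations of the arrays from their group mean were correlated between brighter members with a median Pearson r of 0.58 over 79 arrays, and 832 of the 861 pairs of members had a positive r. Without C57L/J (668) the median was 0.47. Each brighter member was also set against the median deviation of the other brighter members on the same array. The median r was 0.77, ranging from -0.08 for Snord95 to 0.94, and it was over 0.5 for 35 of 42. Without C57L/J (668) the median was 0.68 and 33 were over 0.5. The points share array, label and probe chemistry, and no test is attached to these correlations. The brighter members least tied to the shared level were Snord95 (r = -0.08), Snora30 (0.16), the probe sets of Snord14d, Snord14c and Hspa8 (0.34 and 0.35) and Snord118 (0.38). The 4 near-identical probe sets of Snord116l2, Snord116l1 and Gm26504 had r between 0.04 and 0.08, and among the other dim members r was lowest for the probe set of Snord7 and AI450353 (-0.21) and that of Snord14a and Rps13 (-0.12).

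The shared level was summarised as the median of the 42 brighter members on each array. It ran from 8.09 to 10.74 over the 81 arrays, with a median of 8.63. The highest value belonged to C57L/J (668) replicate 2. C57L/J (668) replicate 1 was at 8.62, close to the median of all arrays. The next values were 9.83 for NZB/BINJ replicate 1, 9.45 for C57BL/10J replicate 1 and 9.41 for A/J replicate 1. The pooled SD of this level within groups was 0.38 and the SD of the group means was 0.31, or 0.31 and 0.28 without C57L/J (668). The spread between arrays of a strain was thus at least as large as that between strain means. The lowest group means were those of PWD/PHJ (8.16), titled C57BR (8.23) and titled Balb (8.29).

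**Figure D2:**
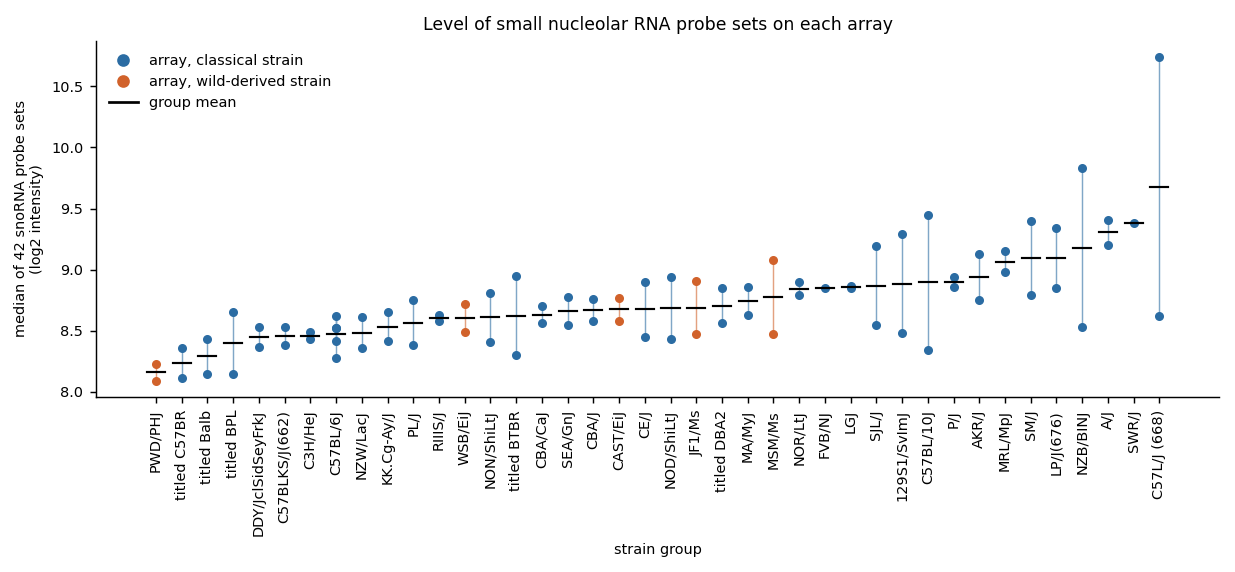
Each point is an array, placed by its strain group on the horizontal axis and by the median log2 intensity of the 42 brighter snoRNA probe sets on the vertical axis. Orange points are wild-derived strains, black bars are group means, and groups are ordered by that mean. C57L/J (668) replicate 2 stands alone at 10.74, while replicate 1 of the same strain is at 8.62.

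In C57L/J (668), 70 of the 72 members were higher on replicate 2 than on replicate 1, and 56 differed by at least 1. The median difference was 1.61 over all members and 1.89 over the brighter ones. Over all probe sets the median difference was -0.05 and 0.815% differed by at least 1. The largest differences belonged to Snord87 (3.27), the probe set of Snord1c and Snord1b (2.95), Snord15a (2.93), Snora31 (2.84), Snord47 (2.82) and Snora62 (2.75). Only Snord95 (-0.26) and the probe set of Snord7 and AI450353 (-0.23) went the other way, and Snord118 differed by 0.55. Other small RNAs moved to the same side: the 13 measured of a list of 29 small nuclear and stable RNAs, which holds RNAs such as Rnu12 and Rny1, had a median difference of 0.98. Rny1, a Ro-associated Y RNA, differed by 2.74, Rnu3a, the U3 snoRNA filed under another symbol, by 2.45 and Rnu12, the U12 spliceosomal RNA, by 1.86. The 32 measured host genes had a median difference of 0.02 and ribosomal protein genes one of 0.30. Here and below, the positions of the probe sets that read these genes were not compared with those of the genes. Of the 7 measured non-coding host genes, Snhg17 differed by 1.63, Gas5 by 1.31, Snhg5 by 0.46 and Dancr by 0.40, while Snhg11 (-0.43), Meg3 (-0.29) and Snhg16 (-0.21) lay on the other side. The 16 measured cell cycle genes, which mark dividing precursors, had a median difference of 0.60 here and, in NZB/BINJ, of 0.30, where the members lay on the other side. Their part in the result was not tested.

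The same layout, smaller, was found in other strains. In NZB/BINJ 58 of the 72 members were higher on replicate 1. The median of replicate 2 minus replicate 1 was -1.12 over the brighter members and -1.12 over the other small RNAs, and 33 members differed by at least 1, beside 3.09% of all probe sets. In the same pair the immediate early and stress genes had a median difference of 0.63, the monocyte and macrophage markers one of 0.50 and the eosinophil markers one of 0.47, and their part in the result was not tested. In C57BL/10J 63 members and in JF1/Ms 66 members were higher on the array with the lower number. Over the 37 groups of 2 arrays, a median of 52 of 72 members (72.2%) lay on the same side, beside 53.7% of all probe sets. In 9 pairs at least 58 did. The median of the other small RNAs lay on the same side as that of the brighter members in 30 of 37 pairs. That of the host genes did so in 19 and that of ribosomal protein genes in 20. Neither a batch nor an RNA quality measure is in the labels, so their part in this was not tested.

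**Figure D3:**
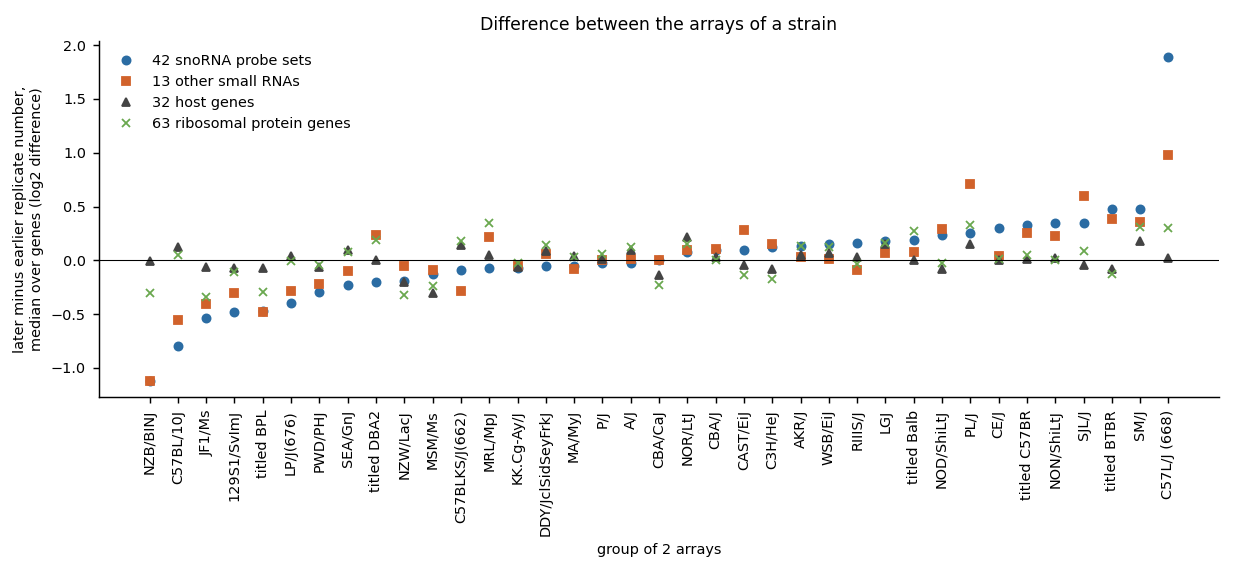
For each of the 37 groups of 2 arrays, on the horizontal axis, the points give the median log2 difference of the array with the higher replicate number minus the other, over the 42 brighter snoRNA probe sets (blue circles), 13 other small RNAs (orange squares), 32 host genes (black triangles) and 63 ribosomal protein genes (green crosses). Blue and orange points fall on the same side of 0 in 30 groups, and the range of blue points runs from -1.12 in NZB/BINJ to 1.89 in C57L/J (668).

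The question the design sets is how far the transcripts of neutrophils differ among inbred strains. With a model of 1 mean per group and 1 spread pooled over all groups (limma's moderated F test, Benjamini-Hochberg adjustment over all probe sets, threshold 0.05), 44 of the 72 members differed among strains, or were called. Of all probe sets 56.0% were called, so the members' share was near that of all probe sets. At a mean of at least 7, 31 of the 42 members were called, beside 9186 of 10827 probe sets, so there the members' share was lower. Both a call and group means that spanned at least 2-fold were found for 39 members, beside 24.5% of all probe sets. The span alone was at least 2-fold for 56 members (77.8%) and for 25.1% of all probe sets. The spread of replicate arrays also widens a span of group means. Its median SD was 0.39 for members and 0.14 for all probe sets. The larger shares of members with a 2-fold span are therefore not read as larger differences among strains. An unadjusted p under 0.05 was found for 48 members, beside 61.1% of all probe sets. Of the C/D class 29 of 43 were called and of the H/ACA class 15 of 29. The highest group mean of 41 members was that of C57L/J (668). Without both arrays of this strain 53 members were called, beside 13814 of all 24922 probe sets. A 2-fold range as well was found for 43 members, beside 5981 of all probe sets. The median range of the members fell from 1.85 to 1.49. Of the 44 called with all arrays, 43 were also called without that strain.

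Snord118, the U8 snoRNA needed for processing of the 5.8S and 28S ribosomal RNAs, had the widest spread of strain means, with an SD of 1.54. The probe sets of Snord116l2, Snord116l1 and Gm26504, described last, had SDs of 0.77 to 0.89. Here and for the members that follow, the ends of a range are the groups with the lowest and the highest mean, and a single array of another group can lie beyond them. Groups picked as the extremes of 40 means tend to lie apart, so a lack of overlap between them is a description and no test. Snord118 ran from 6.64 and 6.61 in DDY/JclSidSeyFrkJ to 12.06 and 12.61 in C57L/J (668), and its lowest single array was JF1/Ms replicate 2 (6.29). Both C57L/J (668) arrays were higher than every array of any other group. C57BL/6J arrays read 6.38, 8.04, 6.68, 6.99 and 6.84 and C57BL/10J arrays 9.86 and 10.15, so these closely related strains did not overlap. SM/J (11.10 and 11.76), MRL/MpJ (11.91 and 10.59) and A/J (10.42 and 11.98) were also high, as were the single arrays of SWR/J (mean 10.70) and FVB/NJ (10.64). Group means of at least 9 were found in 11 of 40 groups, and 20 groups lay under 8. The largest step between neighbours in this order, 0.91, was that from SM/J to C57L/J (668), and no other step was larger than the SD of 0.67 within groups. The range of group means was 5.71 (adjusted p = 1.8e-13) and 4.81 without C57L/J (668) (adjusted p = 1.4e-11). The between-strain share of its variance was 81.9%.

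Snord53, which lies in the gene Wdr43 on chromosome 17, had the next widest spread among members with 1 symbol, with an SD of group means of 0.84 and an SD within groups of 0.40. The order of strains differed from that of Snord118, with an r of 0.27 between their group means. DDY/JclSidSeyFrkJ was lowest again (8.05 ± 0.06, SD, n = 2), followed by C57BLKS/J(662) (8.25 and 8.13), and C57BL/6J read 8.64, 8.43, 8.32, 8.51 and 8.39. At the top were C57L/J (668) (10.37 on replicate 1 and 1.63 higher on replicate 2), SWR/J (10.88), NZB/BINJ (11.12 and 10.20) and MRL/MpJ (10.88 and 10.36), none of which overlapped with C57BL/6J. Group means of at least 10 were found in 15 groups and of at least 9 in 28. The range was 3.14 (adjusted p = 2.5e-12), and 2.83 without C57L/J (668) (adjusted p = 5.0e-13).

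Snord82 in Ncl stood out for low values. JF1/Ms was lowest (10.29 and 9.56) and MSM/Ms next (10.09 and 10.75). The 5 C57BL/6J arrays lay between 10.71 and 11.11 and those of A/J at 11.98 and 11.97. At the top were C57L/J (668) (11.72 and 12.87) and LP/J(676) (12.28 and 12.04), above all JF1/Ms and MSM/Ms arrays. The adjusted p was 9.5e-07 with a range of 2.37. Ncl itself, the nucleolin gene, was lower in wild-derived than in classical strains (difference -0.64, SE 0.15, adjusted p = 0.00250). The r of Snord82 with Ncl over strains is given below.

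Snora41 in Eef1b2 ran from 5.77 and 5.91 in titled Balb to 9.35 and 8.08 in NZB/BINJ (adjusted p = 3.5e-05, range 2.88). NOD/ShiLtJ (5.77 and 6.14) and C3H/HeJ (5.88 and 6.16) were also low. MSM/Ms (7.88 and 8.47) and C57L/J (668) (7.44 and 9.47) were high, and no array of these or of NZB/BINJ overlapped with the low strains. The arrays of C57L/J (668) lay 2.02 apart.

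**Figure D4:**
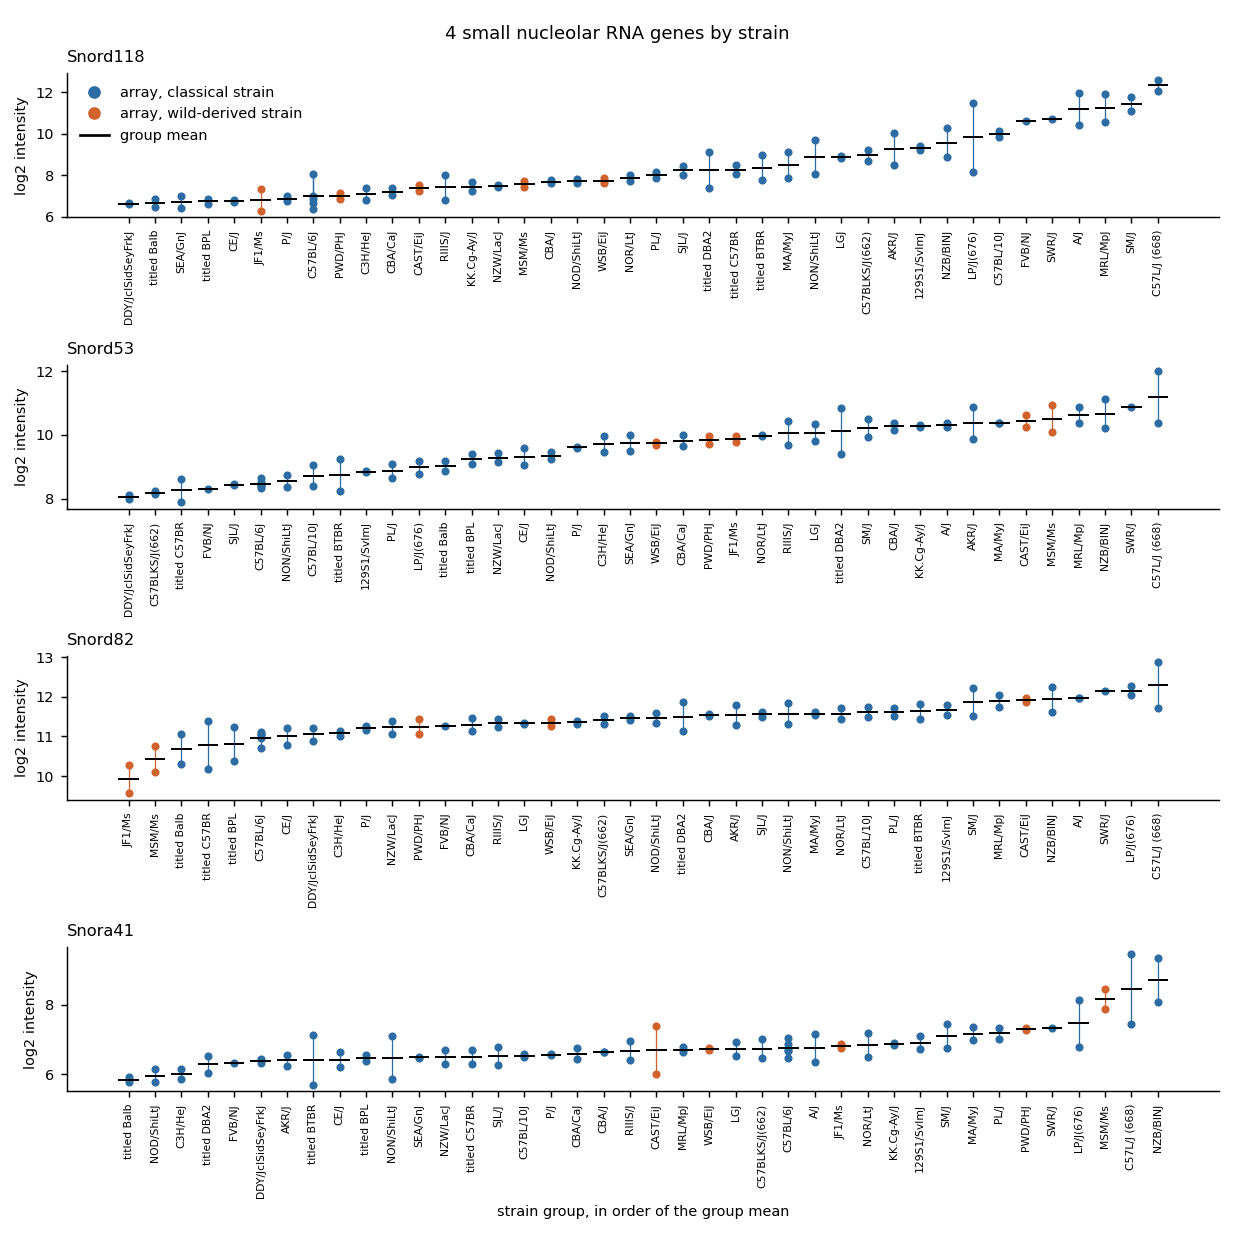
The 4 panels give the log2 intensity of Snord118, Snord53, Snord82 and Snora41 on each array (points) and the group mean (black bars) for the 40 strain groups on the horizontal axis, each panel in the order of its own means, with wild-derived strains in orange. Snord118 reaches 12.34 in C57L/J (668), Snord53 spreads more evenly, Snord82 drops in JF1/Ms and MSM/Ms, and Snora41 is high in NZB/BINJ, C57L/J (668) and MSM/Ms.

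Of the other called members with 1 symbol and a wide spread, most were highest in C57L/J (668). Snora44 in Snhg12 ran from 7.61 and 7.68 in NOD/ShiLtJ to 10.29 and 11.48 in C57L/J (668), with 11.27 and 10.10 in NZB/BINJ (adjusted p = 0.00514). Snora33 in Rps12 ran from 6.93 and 7.02 in titled C57BR to 8.57 and 10.78 in C57L/J (668) (adjusted p = 0.00133). The groups at both ends, picked as the extremes, did not overlap in either case. Both Snora3 probe sets read the same gene in Rpl27a, correlated at 1.000 over arrays and are counted in every number above as separate members; their lowest group was CAST/EiJ (8.56 and 9.05 on one of them) and their highest C57L/J (668) (10.47 and 12.02). Snora73a ran from 9.17 and 8.87 in titled Balb to 10.47 and 11.86 in C57L/J (668) (adjusted p = 0.0104). Its neighbour in Snhg3, Snora73b, had a similar range of 2.52 and was not called (adjusted p = 0.0686).

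Of the C/D members, Snord47, one of several snoRNAs in Gas5, read 8.47 and 11.29 in C57L/J (668) and 8.03 and 6.76 in titled BPL, the lowest group (adjusted p = 5.8e-04). The 5 arrays of C57BL/6J lay between 7.81 and 7.97. Snord73b in Rps3a1 ran from 8.45 and 7.81 in PWD/PHJ to 9.58 and 11.93 in C57L/J (668) (adjusted p = 8.3e-04). Snord15a in Rps3 was lowest in PWD/PHJ (6.26 and 6.07) and highest in C57L/J (668) (6.98 and 9.90), and in A/J its arrays read 8.10 and 8.28 (adjusted p = 0.00573). For these 3, C57L/J (668) replicate 2 lay 2.82, 2.35 and 2.93 above replicate 1.

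The 4 snoRNAs of Rpl13a are known from work on lipid and oxidative stress, which was not part of this design. All 4 were called, beside 56.0% of all probe sets. Snord33 ran from 6.79 and 5.90 in PWD/PHJ to 8.05 and 10.59 in C57L/J (668), with 8.93 ± 0.11 (SD, n = 2) in MRL/MpJ (adjusted p = 3.0e-05). Snord35a had a range of 2.02 (adjusted p = 9.5e-05), with its lowest mean in titled BPL (8.28). The probe sets shared by Snord32a and Snord34 with Rpl13a had ranges of 1.46 and 1.87. The group means of these 4 were correlated with each other at r between 0.55 and 0.89.

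This closeness was seen for most members that lie in 1 host. Counting near-identical probe sets once, 16 pairs of members shared a spanning gene, from 11 genes, and their group means had a median r of 0.58, beside 0.30 for the 2000 pairs in different genes. Among brighter members the median was 0.84 for 11 pairs within a gene and 0.50 for 730 pairs in different genes. The highest values were those of the Snord14 members in Hspa8 (0.93), Snord34 and Snord35a in Rpl13a (0.89), Snora73a and Snora73b in Snhg3 (0.88), Snord49a and Snord49b in 2410006H16Rik (0.87) and Snord15a and Snord15b in Rps3 (0.79). Members of 1 host can be similar in sequence, and the probe sequences were not used here, so reads of a common target cannot be told apart from like levels. Low values were those of Snord95 and Snord96a in Rack1 (-0.18) and Snord73a and Snord73b in Rps3a1 (0.27), where 1 of each pair had a mean under 7. The 40 points share their arrays, and no test is attached.

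The snoRNA and the messenger of its host are made from 1 precursor. Member and host were both measured with a probe set of their own for 27 pairs with 22 hosts. Each host was read by the brightest probe set that lists its symbol alone. The position of that probe set was not compared with the host's, so whether it reads this host transcript was not tested. The numbers of the members' probe sets are mostly grouped by chromosome. That used for Rpsa, on chromosome 9, falls among those of chromosome 11. That for Rpl10, on chromosome X, falls between those of chromosomes 2 and 3. For such hosts r may not describe the host transcript. Over the 40 group means r had a median of 0.08 and ran from -0.38 to 0.65, and 16 of the 27 were positive. With permutation p-values adjusted over the 27 pairs, 4 passed by Pearson's r, 7 by Spearman's rho and 3 by both. Of the 7, 2 had a negative rho. The 3 were Snord15a with Rps3 (r = 0.65, permutation p = 2.0e-05, adjusted 1.8e-04; rho = 0.65, permutation p = 3.0e-05, adjusted 8.1e-04), Snord15b with Rps3 (r = 0.65, permutation p = 2.0e-05, adjusted 1.8e-04; rho = 0.60, permutation p = 1.0e-04, adjusted 0.0014) and Snord61 with Rbmx (r = 0.60, permutation p = 2.0e-05, adjusted 1.8e-04; rho = 0.56, permutation p = 2.2e-04, adjusted 0.0020). Without the 2 groups farthest from the median host level these r were 0.58, 0.55 and 0.57. Snora62 with Rpsa passed by r alone (r = 0.49, permutation p = 8.7e-04, adjusted 0.0059; rho = 0.34, permutation p = 0.032, adjusted 0.088). By rho alone, Snora33 with Rps12 (rho = 0.47, permutation p = 0.0022, adjusted 0.015; r = 0.41) and Snora75 with Ncl (rho = 0.40, permutation p = 0.011, adjusted 0.045; r = 0.31) passed with a positive sign. Snora23 with Ipo7 (rho = -0.42, permutation p = 0.0073, adjusted 0.040; r = -0.37) and Snord53 with Wdr43 passed with a negative one.

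Among the other host pairs, r was near 0 for the brightest members. Snora52 and Rplp2 had an r of -0.05 (permutation p = 0.77; rho = -0.02, permutation p = 0.92) and Snord57 and Nop56 one of 0.08 (permutation p = 0.64; rho = 0.08, permutation p = 0.61). Snord53 and Wdr43 had an r of -0.38 (permutation p = 0.016, adjusted 0.055; rho = -0.40, permutation p = 0.012, adjusted 0.045). For Snord82 and Ncl the r of 0.37 (permutation p = 0.021, adjusted 0.055; rho = 0.01, permutation p = 0.96) rested on JF1/Ms and MSM/Ms, and without them it was -0.18. Inbred strains are related to each other, so these points are not fully independent.

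Among the proteins that bind snoRNAs, replicate arrays lay closer together than for the snoRNAs. All 4 C/D snoRNP proteins measured were called. Fbl, the methyltransferase fibrillarin, ran from 6.45 to 8.01, with MSM/Ms highest, and was higher in wild-derived strains by 0.63 (SE 0.10, adjusted p = 1.1e-05). Nop56, a core protein of the C/D snoRNP, was lower there (difference -0.30, SE 0.10, adjusted p = 0.0349). Snu13, which binds the kink-turn of C/D snoRNAs, ran from 8.50 in NZB/BINJ to 9.97 in NON/ShiLtJ. Of the 4 H/ACA snoRNP proteins 2 were called, Dkc1, the pseudouridine synthase dyskerin (adjusted p = 7.9e-05), and Nop10 (adjusted p = 1.0e-06). The median SD within groups was 0.15 for the C/D and 0.18 for the H/ACA proteins. Of the factors of snoRNP assembly and transport 7 of 13 measured were called and of those of the nucleolus and RNA polymerase I 21 of 25. Host genes were called in 28 of 32 cases and ribosomal protein genes in 58 of 63. The non-coding host genes had 4 of 7 measured called, and other small RNAs 10 of 13. With 56.0% of all probe sets called, these counts are descriptions of the lists.

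Strains were also compared by origin: PWD/PHJ, WSB/EiJ, CAST/EiJ and MSM/Ms derive from wild-caught mice, JF1/Ms, which comes from Japanese fancy mice, is counted with them as wild-derived, and the other 35 groups are classical laboratory strains. On strain means, with limma and adjustment over all probe sets, 1 member was higher in wild-derived strains, beside 6.64% of all probe sets, and 2 were lower, beside 5.55%. At an unadjusted p under 0.05 there were 4 higher, beside 15.6% of all probe sets, and 16 lower, beside 11.0%. Among the 16 are the 4 near-identical probe sets of Snord116l2, Snord116l1 and Gm26504, which count as 1 measurement. The median difference over the members was -0.06, beside 0.03 over all probe sets, and 45 of 72 differences (62.5%) were below 0, beside 39.9% of all. At a mean of at least 7 the gap was smaller. There the medians were -0.04 and 0.00, and 24 of 42 differences (57.1%) were below 0, beside 49.8%. With the array median of the brighter members as a covariate the median difference was 0.05. At an unadjusted p under 0.05 there were 13 higher and 11 lower, beside 6546 of all 24922 probe sets in either direction. The covariate is made from the members themselves and takes out their shared level by construction, so nothing is read from this change of sign. At an adjusted p under 0.05 without both C57L/J (668) arrays 2 were higher and 2 lower, beside 1688 and 1405 of all probe sets.

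The member higher in wild-derived strains was Snord95, a C/D snoRNA in Rack1. PWD/PHJ read 8.17 and 7.86, CAST/EiJ 8.08 and 7.91, and JF1/Ms 7.70 and 7.52, while MSM/Ms had a mean of 7.85 ± 0.21 (SD, n = 2) and WSB/EiJ one of 7.59 ± 0.13 (SD, n = 2). PWD/PHJ, CAST/EiJ and MSM/Ms lay above all classical means, which ran from 7.06 in C57L/J (668) to 7.65 in NZW/LacJ, while JF1/Ms and WSB/EiJ fell among them. The difference was 0.35 (SE 0.07, adjusted p = 6.5e-04), between 7.81 ± 0.20 (SD, n = 5) and 7.47 ± 0.14 (SD, n = 35). Snord95 was also the brighter member that followed the shared level of snoRNAs least.

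The probe set of Mir1291 and Snora34, in Kansl2 on chromosome 15, was lower in wild-derived strains. PWD/PHJ read 6.62 and 5.93, JF1/Ms 6.85 and 5.95, MSM/Ms 7.15 and 5.87, CAST/EiJ 6.54 and 6.76 and WSB/EiJ 6.95 and 7.45. Classical means ran from 6.31 in titled C57BR to 8.72 in C57L/J (668), so the groups overlapped. The difference was -0.69 (SE 0.20, adjusted p = 0.0181). It was not past the threshold without JF1/Ms (-0.64, adjusted p = 0.0718), MSM/Ms (-0.67, adjusted p = 0.0629) or PWD/PHJ (-0.61, adjusted p = 0.0861), nor without C57L/J (668) replicate 1 (-0.72, adjusted p = 0.0537) or MSM/Ms replicate 2 (-0.57, adjusted p = 0.0633). Snora2b, in the same host gene, was lower too (difference -0.37, SE 0.08, adjusted p = 0.00178). All 5 wild-derived means, from 4.77 to 4.98, lay below the classical median of 5.28, in a member that is dim throughout and was not called among strains (adjusted p = 0.388). Kansl2 itself differed by 0.03 (SE 0.06, adjusted p = 0.787).

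**Figure D5:**
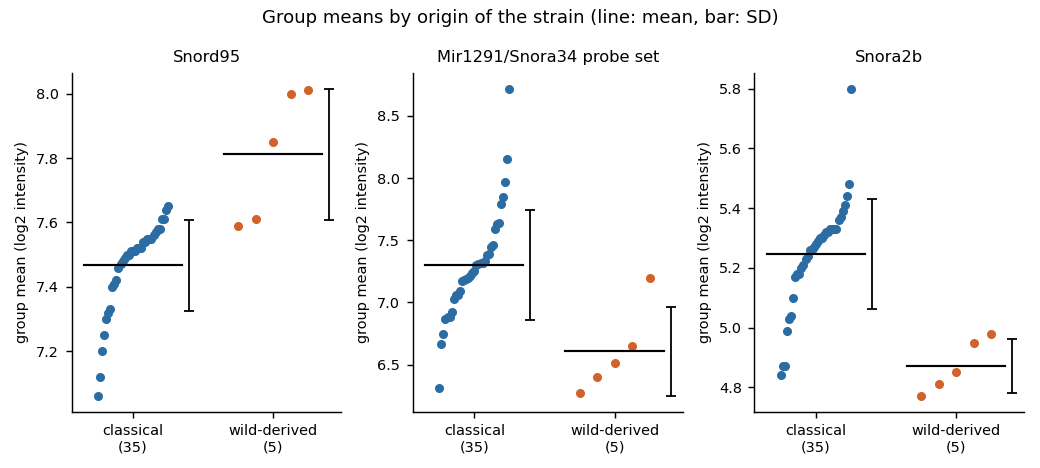
The 3 panels give the group means in log2 intensity of Snord95, the Mir1291/Snora34 probe set and Snora2b (points) for the 35 classical and 5 wild-derived groups on the horizontal axis, with the mean of each origin as a line and its SD as a bar at the right. Wild-derived strains sit higher for Snord95 and lower for the others, and the points of the origins overlap in part in each panel.

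The members with the largest differences between replicate arrays were 3 of the 4 probe sets of Snord116l2, Snord116l1 and Gm26504 and Snord104. Snord116 snoRNAs are imprinted, lie in the region deleted in Prader-Willi syndrome and are best known from neurons. On one of these probe sets the A/J arrays read 5.51 and 8.90, while CAST/EiJ read 3.72 and 3.99 and C57BL/6J lay between 3.92 and 5.17. A/J was the highest group and A/J replicate 2 the highest array for all 4 probe sets. They correlated at r of 0.991 to 0.998 over arrays and count as 1 measurement. Snord104, in the non-coding gene Gm36220, ran from 8.94 and 7.61 in PWD/PHJ to 10.43 and 10.75 in SM/J and was not called (adjusted p = 0.154).

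Other members with high levels that were not called among strains were the probe set of Snora28 and Eif5 (adjusted p = 0.297) and that of Snora43 and Snhg7 (adjusted p = 0.0747). In the first, the C57L/J (668) arrays read 9.36 and 11.39, and without that strain it was called (adjusted p = 0.0218). The second was also called without that strain (adjusted p = 0.0237), with A/J highest (9.54 and 9.83) and DDY/JclSidSeyFrkJ lowest (8.72 and 8.58). A p above the threshold does not show that the strains were alike in these members.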

How the data were processed

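Bone marrow cells carrying CD11b and Ly6G were sorted, RNA was extracted with TriZol and hybridised to Affymetrix arrays, per the labels' protocols. The authors deposited a linear intensity for each probe set and array. Affymetrix Power Tools and RMA are named, without versions, per the submitters' processing notes. Linearity was read from the values (5.30 to 19348). Scanner files, probe sequences and sequence variants under probes were not used here.

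Values were converted to log2 without further scaling and named by the platform's annotation: 21425 probe sets carry 1 symbol, 1399 several and 2098 none. Positions and sequences came from RefSeq tables of GRCm38.p6. These give no strand for snoRNAs, so a host is any gene whose span holds the snoRNA. The build behind the probe sets is not given in the sources used here.

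Tests used limma 3.58.1 in R 4.3.3 (lmFit, eBayes), tested on simulated data first, over all 24922 probe sets with 41 residual and 7.93 prior degrees of freedom. A call is an adjusted p under 0.05 (Benjamini-Hochberg). Origin, common knowledge of strain names, was tested on the 40 strain means. Host correlations used 100000 permutations, 2-sided. The labels do not say that same-strain arrays came from separate sorts, though the series design calls them biological replicates. Alternatives were a common array median, quantile normalization, a trended robust prior, a mean of at least 7, the replicate block, leaving out each array, the 5 groups of conflicting labels or those of 1 array, the background label as group, members with 1 symbol, 32 added before log2 and each wild-derived strain left out. Chosen after seeing the data were leaving out C57L/J (668) and the array median of brighter members as a covariate.

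Values by group were given for the 12 called members with 1 symbol and the largest SD of group means, the 6 with the highest mean, those called by origin, the 4 with the largest replicate differences and the 4 brightest not called; a few others were named after their values were seen. Members and lists were chosen with earlier results of these data known.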

Additional observations from a re-analysis of the deposited data

Results flagged for a closer look

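Of the median level of the brighter members in the 5 wild-derived strains, PWD/PHJ at 8.16 lay apart from the others, the nearest being at 8.60 and the highest at 8.77. Both PWD/PHJ arrays were low. It was the only value set apart among 56 sets of 5 values looked at, which were the C57BL/6J arrays and the wild-derived means of each member described and of the median level. About 1 set in 20 is set apart by chance.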

How the results depend on the processing

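The count of members called among strains stayed within 1.5 times of 44 in every alternative, at 40 to 63 with 1 array left out. With a 2-fold range it was 36 to 61, the highest without C57L/J (668) replicate 1, beside 39. Without regard to the range, the count was 41 with quantile normalization and 37 at a common array median. Of all 24922 probe sets 13841 and 13241 were called there. In all 90 fits with every member, 33 members were called throughout and 4 in none. The same was not counted over all probe sets, so no background stands beside it. The replicate number pairs no arrays by the labels: same-numbered deviations correlated with a median of 0.00, with 148 of 595 pairs over 0.1. With the replicate block 40 members were called among strains, beside 13465 of all 24922 probe sets. By origin 4 were called, 2 higher and 2 lower, beside 1660 and 1383 of all probe sets. No call of a member described here changed.

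The count called by origin, 3, was 2 to 10 with 1 array left out, the highest without MSM/Ms replicate 1. It was 8 without JF1/Ms replicate 1, 6 without PWD/PHJ replicate 1, 5 without C57L/J (668) replicate 2, JF1/Ms replicate 2 or WSB/EiJ replicate 2, 7 without the groups of conflicting labels, 5 by background label, 7 without the strain CAST/EiJ or WSB/EiJ, and 8 with the array median of brighter members as a covariate. The counts over all probe sets moved too. They were 1656 higher and 1383 lower in the reported fit, 1463 and 1236 without CAST/EiJ, and 2032 and 1561 without WSB/EiJ. The cause was not tested. With the array median of brighter members as a covariate 58 members were called among strains, beside 13469 of all probe sets. The median range of the members was then 1.24. Since this covariate is made from the members, their shared level is removed by construction. Of the called members described, Snord57 alone lost its call among strains under another setting, a common array median (adjusted p = 0.0590). Snora73b, Snora2b, Snord104 and the probe sets of Snora28 and of Snora43 were called when certain single arrays were left out, C57L/J (668) replicate 1 among them in each case. The count of arrays per strain limits the precision.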
